A study of Mus musculus with 4 samples.

Results

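The genes of DNA replication licensing and of the replication fork were followed in mouse embryonic stem (ES) cells from which Rif1 had been depleted by small interfering RNA (siRNA). They are 45 genes, chosen by name from the known replication machinery, and every probe carrying one of these names on the array was taken: 56 probes of 39429, for 45 of 30199 gene names. E14tg2a, an established mouse ES cell line grown with leukemia inhibitory factor, was measured on 4 one-colour arrays. The arrays held untreated cells, cells at 72 h after a control siRNA, cells at 48 h after Rif1 siRNA and cells at 72 h after Rif1 siRNA. The untreated cells are entered as 0 h here, and the title of their array gives no time. There was 1 array per condition, so no p-value is given and no spread between cultures is known. No genotype, age or further treatment distinguishes the arrays in the labels.

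Replication is prepared in G1 phase, when the origin recognition complex, with Cdc6 and Cdt1, loads the MCM helicase onto DNA, a step called licensing that geminin blocks later in the cycle. At the start of S phase the kinase Cdc7 with its activator Dbf4 phosphorylates the helicase, Cdc45 and the GINS complex join it, and the polymerases, the sliding clamp PCNA and its loader follow. Rif1 is known as a partner of protein phosphatase 1 that opposes this kinase and as a regulator of replication timing. Many replication genes are targets of E2F transcription factors, and ES cells, which spend much of their cycle in S phase, express them strongly.

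The replication genes stayed close to their control levels when Rif1 was depleted. Of 55 member probes measured in both conditions, 0 lay more than 1.5-fold above or below the control siRNA array at 72 h, where 4.45% of all probes lay above and 2.54% below, and 0 did so at 48 h, against 5.55% and 3.43%. Most were slightly lower: the median difference was -0.11 on the log2 scale at 72 h (0.926-fold) and -0.16 at 48 h (0.893-fold). Quantile normalization brought these medians to -0.055 and -0.11. Over all measured probes the median was also below 0, at -0.069 and -0.071. A shift of the same sign was thus present over the array as a whole.

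The 60-base probes that read some of these transcripts are shown as the array files hold them, 5′ to 3′ and in the sense of the transcript, with positions on mm9. They were picked because Rfc4, Pold1 and Pold2 had among the lowest values of the replication genes, Orc2 and Rfc3 are subunits of the origin recognition complex and of the clamp loader, and the Cdc7 probe was the one member past 1.5-fold in any comparison. The Orc2, Rfc3 and Pold1 probes span more than 60 bases of the genome, as a probe across an exon junction does. An exon or UTR annotation of mm9 was not used here.
Rfc4 probe A_55_P2159801 (chr16:23120982-23121041, minus strand): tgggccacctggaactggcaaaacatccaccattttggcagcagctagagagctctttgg
Pold1 probe A_51_P367125 (chr7:51788221-51788589, minus strand): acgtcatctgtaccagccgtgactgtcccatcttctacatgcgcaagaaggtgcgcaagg
Pold2 probe A_51_P342707 (chr11:5773086-5773145, minus strand): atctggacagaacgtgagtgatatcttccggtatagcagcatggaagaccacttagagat
Orc2 probe A_66_P115378 (chr1:58521127-58522890, minus strand): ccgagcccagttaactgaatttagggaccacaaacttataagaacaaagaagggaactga
Rfc3 probe A_51_P479434 (chr5:152448247-152450045, minus strand): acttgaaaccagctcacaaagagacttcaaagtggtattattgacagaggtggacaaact
Cdc7 probe A_52_P512519 (chr5:107398228-107398287, plus strand): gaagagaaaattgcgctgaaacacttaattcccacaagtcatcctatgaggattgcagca

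The promoters of the replication genes often hold an E2F-type site. Promoters from RefSeq (GRCm38.p6, 250 bases before to 50 after each start) were found for 37 of the 45 genes and searched on both strands for TTTCCCGC, TTTGGCGC, TTTCGCGC and TTTGCCGC. At least 1 of these stood in 15 of 37 member genes (40.5%), against 704 of 27025 genes with a promoter (2.60%) and 575 of 17492 protein-coding genes (3.29%). The 15 genes were Cdc6, Cdt1, Gins3, Lig1, Mcm3, Mcm5, Mcm6, Mcm7, Orc1, Orc3, Pola1, Pold1, Pole2, Rfc3 and Topbp1. TTTGCCGC was in 0 of 37. A match is a run of letters, not a measured binding site. Stretches of 60 bases before the start of 6 licensing and helicase genes are shown, 5′ to 3′ on the strand of the gene, with the matches in capitals. In Mcm5 a TTTCGCGC and, on the opposite strand, a TTTGGCGC overlap by 4 bases.
Mcm5 (chr8:75109332-75109391, plus strand): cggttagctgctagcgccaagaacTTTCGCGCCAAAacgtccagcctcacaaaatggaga
Mcm6 (chr1:128359719-128359778, minus strand): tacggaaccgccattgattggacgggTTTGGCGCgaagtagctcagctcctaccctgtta
Mcm7 (chr5:138172015-138172074, minus strand): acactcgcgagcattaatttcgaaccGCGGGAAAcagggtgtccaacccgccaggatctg
Cdc6 (chr11:98907987-98908046, plus strand): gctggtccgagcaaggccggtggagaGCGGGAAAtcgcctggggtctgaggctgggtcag
Orc1 (chr4:108579394-108579453, plus strand): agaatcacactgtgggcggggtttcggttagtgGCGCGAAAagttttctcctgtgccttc
Gins3 (chr8:95633492-95633551, plus strand): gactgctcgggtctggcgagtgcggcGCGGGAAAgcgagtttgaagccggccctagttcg

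Levels are given as the processed signal of a spot divided by the 75th percentile of the non-control spots of its array, so a level of 1 is a signal at that percentile. Differences are on the log2 scale, and a probe counts as measured where its spot was well above background on both arrays of a comparison. Each member probe had 1 spot per array. Probes spotted repeatedly on an array had a median SD of 0.0621 to 0.0670 on the log2 scale, which gives a limit of 0.178 at 72 h and 0.179 at 48 h for a difference between 2 single spots (1.96 combined SDs). This spot limit covers spot-to-spot noise within arrays and nothing of the variation between cultures. The error that the scanner software attaches to each signal is wider and gives a median error of 0.204 for a difference.

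By the signal of its probe, Rif1 RNA was lowered in part, and more at 48 h than at 72 h. Rif1 protein is not read by these arrays. The Rif1 probe (A_55_P2015964, mm9 chr2:51977508-51977567) read a level of 5.55 in untreated cells, 5.42 after control siRNA, 2.15 after Rif1 siRNA for 48 h and 4.15 after 72 h. Against the control siRNA array the difference was -1.34 at 48 h and -0.39 at 72 h. Both Rif1 siRNA arrays were thus below both others, with the 72 h array the nearer to them. The comparison at 48 h sets cells against a control taken at 72 h, so time in culture and siRNA cannot be told apart in it, and both comparisons share that control array.

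The spot signals were well above background for 58.8% to 74.1% of spots per array, lowest in untreated cells, and 0 spots were saturated. All 45 genes had at least 1 probe well above background on all 4 arrays, as did 55 of the 56 probes. ES cell markers were expressed: of 14 measured probes for 9 genes, 6 were lower and 8 higher at 72 h, with values from -0.69 to 0.59. Beyond the spot limit were 4 lower and 3 higher (27.9% and 16.5% of all probes). Past 1.5-fold was 1 in each direction (2.54% of all probes lower and 4.45% higher). The median of the 14 was 0.028 at 72 h, -0.050 with scaling to the array median and -0.013 after normexp background correction. At 48 h it was 0.12, or 0.026 with scaling to the array median. The probe past 1.5-fold higher at 72 h was of Pou5f1. It read 10.6, 11.5, 12.8 and 17.4 on the untreated, control siRNA, Rif1 siRNA 48 h and Rif1 siRNA 72 h arrays. Sox2 read 5.71, 5.71, 5.73 and 5.76 in the same order. Another marker probe was past 1.5-fold lower, at -0.69, so Pou5f1 and Sox2 do not stand for the list. Of 18 measured probes for genes of the 2-cell-like (2C) state, 16 were over 2-fold higher in Rif1 siRNA cells at 72 h and 16 at 48 h. Of all probes, 3.1% and 3.37% were past 2-fold in either direction. The 2C medians were 4.33 and 4.09. The control siRNA array itself exceeded the untreated array by more than 1.5-fold for 13 of 17 such probes (1.34% of all probes). It did so by more than 2-fold for 8 (0.993% of all probes in either direction), with a 2C median of 0.99. The 16 past 2-fold in Rif1 siRNA cells belonged to Gm2022, Gm4340, Tcstv1, Tcstv3, Usp17la, Usp17lc, Usp17ld, Zscan4a, Zscan4c, Zscan4e and Zscan4f, families of near-identical copies whose members the probes may not tell apart. Of 6 fibroblast markers, 4 were measured and 3 of these were over 1.5-fold higher at 72 h (4.45% of all probes) and 0 at 48 h (5.55%). Their medians were 0.73 and 0.42 (0.40 and 0.29 after normexp), Col1a1 reading 0.340, 0.341, 0.493 and 0.601 and Postn not well above background on any array. Of the 10 lineage marker genes, 12 probes were measured, and 0 at 72 h (4.45% of all probes) and 2 at 48 h (5.55%) were over 1.5-fold higher. The lineage marker median was 0.40 at 48 h (0.16 after normexp), with 8 of 12 higher beyond the spot limit (19.8% of all probes). At 72 h it was -0.098. Control siRNA minus untreated cells gave -0.39, with 10 of 12 lower beyond the limit (14.0% of all probes). The part of these in the values of the replication genes was not tested. In whole-culture RNA, fewer cells expressing a gene and less RNA per cell cannot be told apart.

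Across the array, 24312 probes were measured in the comparison at 72 h. Of these, 4.45% exceeded the control siRNA array by more than 1.5-fold, 2.54% fell short of it by as much, and 3.1% differed by more than 2-fold in one direction or the other. The replication genes gave 0 of 55 in each of these classes. The same shares of 24266 probes in the comparison at 48 h came to 5.55%, 3.43% and 3.37%, and the members again gave 0 of 55 in each class. The member values lay between -0.41 (Rfc4 probe A_55_P2159801) and 0.29 (a dim Prim2 probe, A_55_P1998827) at 72 h, and between -0.44 (a dim Orc3 probe, A_52_P110689) and 0.11 at 48 h. Their SD over probes was 0.129 at 72 h and 0.120 at 48 h, against 0.505 and 0.515 over all measured probes. The quartiles at 72 h were closer, at -0.19 and -0.049 for members and -0.19 and 0.083 for all probes. A small SD was not particular to the members: genes of G2 and mitosis had 0.152 and 0.148. E2F and other G1/S regulators had 0.168 and 0.240, and further replication genes 0.403 and 0.350.

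**Figure D1:**
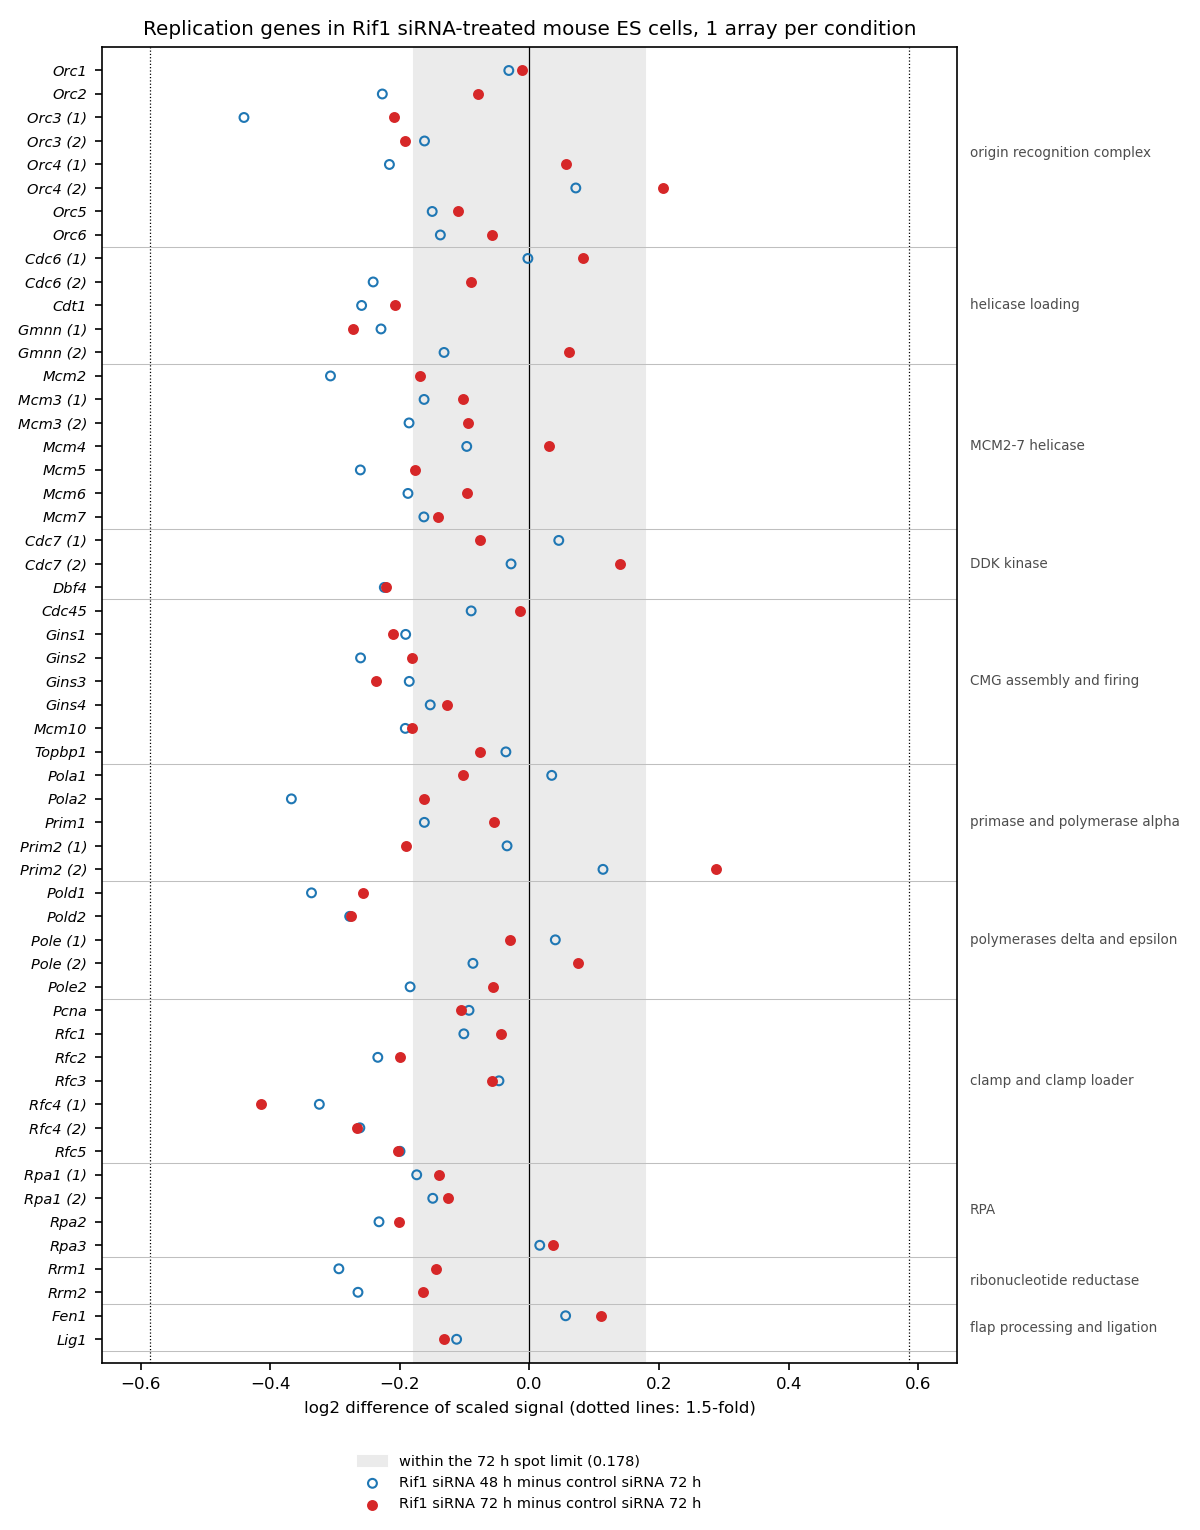
Log2 difference of every measured member probe from the control siRNA array (horizontal axis) at 72 h (filled circles) and 48 h (open circles) of Rif1 siRNA, grouped by role, with 1 array per condition and numbers in brackets marking different probes of a gene. All points lie inside the dotted 1.5-fold lines, and 17 of the 72 h points lie left of the grey band of the spot limit.

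Small negative differences were common. At 72 h, 45 of 55 member probes (81.8%) were lower than on the control array, against 63.1% of all measured probes. At 48 h there were 48 of 55 (87.3%) against 61.3%. Lower by more than the spot limit were 17 of 55 (30.9%) at 72 h, close to the 27.9% of all probes, and 26 of 55 (47.3%) at 48 h, above the 29.1% of all probes. Higher by more than the limit were 2 of 55 at 72 h (16.5% of all probes) and 0 of 55 at 48 h (19.8%). Under quantile normalization the counts were 8 of 55 (14.5%) at 72 h, below the 27.8% of all probes, and 17 of 55 (30.9%) at 48 h, close to the 30.4% of all probes. Scaling to the array median gave 31 of 55 (56.4%) against 43.4% at 72 h and 42 of 55 (76.4%) against 47.4% at 48 h. By the wider error of the scanner software, 1 of 55 member probes lay beyond 2 errors at 72 h and 1 at 48 h. Beyond 1 such error, in either direction, were 10 at 72 h and 19 at 48 h. No share of all probes was computed for these software-error counts, so they cannot be set against the array as a whole.

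Bright probes in general were also lower than the array as a whole. The replication genes are strongly expressed, and 42 of the 55 probes had a mean level over 1, against 9641 of the 24312 probes measured at 72 h. Among all 9641 probes that bright, the median difference was -0.11 at 72 h and -0.11 at 48 h, against -0.14 and -0.19 for the 42 member probes. Lower by more than the spot limit were 15 of 42 (35.7%) at 72 h against 30.5% of bright probes, and 23 of 42 (54.8%) at 48 h against 30.2%. The 13 dimmer member probes had medians of 0.056 at 72 h and -0.087 at 48 h.

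The member median minus that of all probes was -0.042 at 72 h and -0.092 at 48 h. Under quantile normalization this difference turned at 72 h, the members then lying 0.0092 above all probes, and after normexp it was -0.00032. At 48 h the member median stayed below that of all probes under each scaling run, by -0.043 under quantile normalization. The lowering of the group relative to the array at 72 h was thus not stable across scalings, and at 48 h its size, and the share of members past the spot limit, depended on the scaling.

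**Figure D2:**
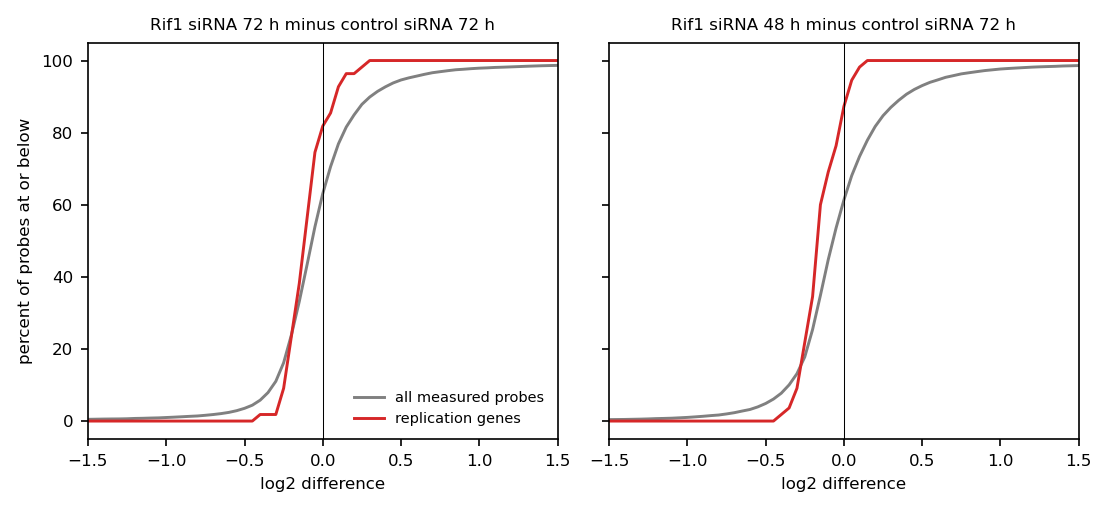
Percent of probes (vertical axis) with a log2 difference at or below the value on the horizontal axis, for all measured probes (grey) and the replication genes (red), at 72 h (left) and 48 h (right) of Rif1 siRNA. The red curves are steeper, with all 55 probes between -0.41 and 0.29 at 72 h, and they sit to the left of the grey curves near 0.

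At 72 h after control siRNA these genes were near their untreated levels. The title of the untreated array gives no time of harvest. Any difference of time in culture cannot be told apart from siRNA in this comparison either. The median difference of control siRNA minus untreated cells was -0.0081 for the 55 member probes and -0.0076 for all 22548 measured probes. The members gave 0 over 1.5-fold higher (1.34% of all probes), 1 over 1.5-fold lower (1.92%) and 0 over 2-fold (0.993%). Beyond the spot limit of 0.175, 3 were higher (12.3%) and 1 was lower (14.0%), and 29 of 55 (52.7%) were lower at all, against 52.4% of all probes.

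A further count, with no minimum size, asks whether both Rif1 siRNA arrays lay outside both other arrays. For 35 of 55 member probes (63.6%) both Rif1 siRNA arrays were below the untreated and the control siRNA array, against 43.3% of 22518 probes measured on all 4 arrays. The gap between the pairs of arrays had a median of 0.13 on the log2 scale over the 35 probes, and it passed the 72 h spot limit for 12 of 55 (21.8%), against 10.4% of all probes. Among bright probes the counts were 34 of 42 (81.0%) against 57.8%. Both were above for 2 of 55 (3.64%), a probe each of Orc4 and Prim2, against 18.1%.

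The 6 subunits of the MCM helicase, which unwinds DNA at the fork, moved little and in parallel. Mcm2 (chr6:88833619-88833678) read a level of 16.5 in untreated cells, 14.7 after control siRNA, 11.9 at 48 h and 13.1 at 72 h of Rif1 siRNA, differences from the control of -0.31 at 48 h and -0.17 at 72 h. Both Rif1 siRNA arrays were below the others, and the untreated array was the highest. Mcm5 (chr8:77651350-77651410) read 31.0, 30.6, 25.6 and 27.1 in the same order, with differences of -0.26 and -0.18. These were the subunits with the lowest values at both times.

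Mcm6 (chr1:130228178-130228237) read 67.5, 63.0, 55.3 and 59.0 in that order, with differences of -0.19 at 48 h and -0.096 at 72 h. Mcm7 (chr5:138605925-138605984) read 35.5, 33.6, 30.0 and 30.5, with differences of -0.16 and -0.14. Mcm3 had a pair of probes that share 43 bases of target and so are not independent. The first (A_51_P324934, chr1:20793119-20793178) read 51.0, 48.7, 43.6 and 45.4, and the second (A_55_P1953087, chr1:20793136-20793195) read 33.7, 32.9, 28.9 and 30.8. Both gave lower values on the Rif1 siRNA arrays, by -0.16 and -0.19 at 48 h and by -0.10 and -0.094 at 72 h.

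Mcm4 (chr16:15624372-15624431) was the exception, with levels of 34.1, 30.9, 28.9 and 31.6 and differences of -0.097 at 48 h and 0.030 at 72 h. Its 72 h Rif1 siRNA array lay between the control and the untreated array. Of the 7 MCM probes, 4 were below the control by more than the spot limit at 48 h (29.1% of all probes) and 0 at 72 h (27.9%). Each of the 7 read lower after control siRNA than in untreated cells, with a median of -0.080 (52.4% and -0.0076 for all probes), and each read higher at 72 h than at 48 h of Rif1 siRNA (48.7% of all probes), with a median of 0.091. The MCM medians were -0.10 at 72 h and -0.19 at 48 h and became 0 and -0.052 under quantile normalization. Against untreated cells the MCM median at 72 h of Rif1 siRNA was -0.19, and that of all probes was -0.083.

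**Figure D3:**
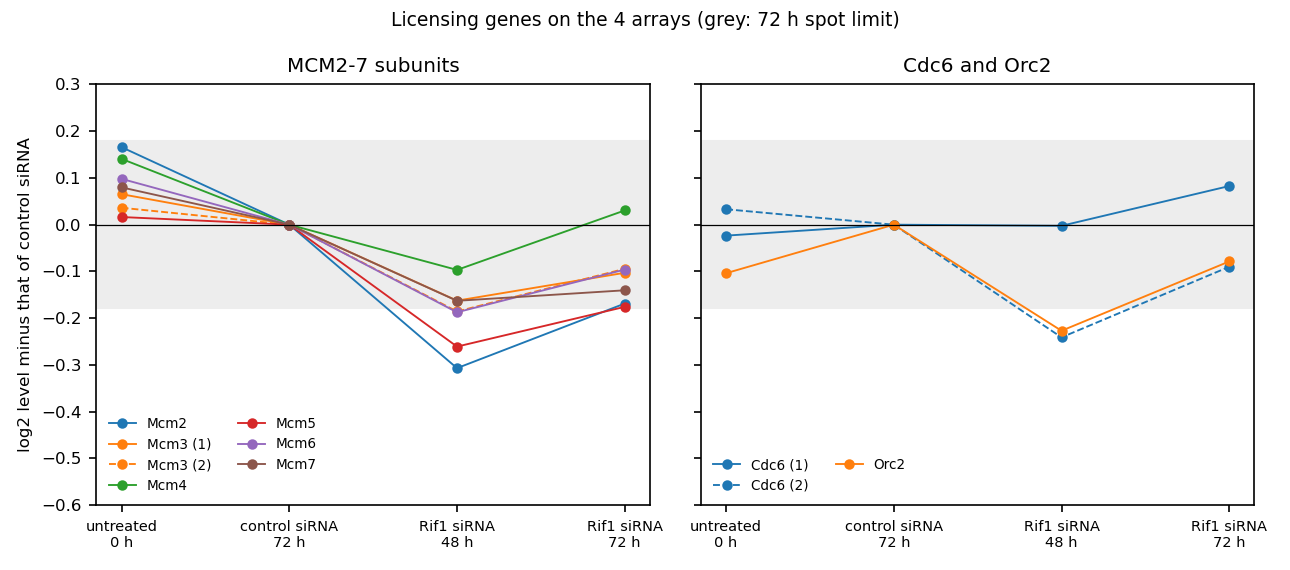
Level on each of the 4 arrays (horizontal axis) as a log2 difference from the control siRNA array (vertical axis), for the probes of Mcm2 to Mcm7 (left) and of Cdc6 and Orc2 (right), 1 array per condition, the lines joining the values of a probe and the grey band marking the 72 h spot limit. Mcm2 has the lowest point, -0.31 at 48 h, and every MCM probe is nearer to the control at 72 h than at 48 h.

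Orc2, a subunit of the origin recognition complex, read 2.44 in untreated cells, 2.62 after control siRNA, 2.24 at 48 h and 2.48 at 72 h of Rif1 siRNA. The differences were -0.23 at 48 h and -0.079 at 72 h, and the 72 h value lay between those of the control and the untreated array. Of the 8 probes of the complex, 2 were lower (27.9% of all probes) and 1 was higher (16.5%) beyond the spot limit at 72 h. Orc1 differed by -0.011, Orc5 by -0.11 and Orc6 by -0.058, and at 48 h these were -0.032, -0.15 and -0.14. Orc3 was lower with both of its probes, at -0.21 and -0.19 at 72 h and at -0.44 and -0.16 at 48 h. The first of these, A_52_P110689, read dimly and was higher after control siRNA than in untreated cells: its levels were 0.0642 in untreated cells, 0.0880 after control siRNA, 0.0649 at 48 h and 0.0762 at 72 h. Orc4 was the subunit with a probe above both controls: A_52_P456123 read 0.215, 0.227, 0.238 and 0.261, while its second probe differed by 0.056 at 72 h and -0.22 at 48 h. Over the 8 probes the median was -0.069 at 72 h (-0.033 under quantile normalization) and -0.16 at 48 h. After control siRNA 0 of the 8 were lower than in untreated cells (52.4% of all probes), with a median of 0.090. Against untreated cells the median at 72 h of Rif1 siRNA was 0.055, so its sign depended on the control used, while that of all probes was -0.083.

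Cdc6, which binds ORC and helps to load the helicase, had probes that disagreed in sign at 72 h. Probe A_66_P131979 (chr11:98782986-98783045) read 1.84 in untreated cells, 1.80 after control siRNA, 1.52 at 48 h and 1.69 at 72 h, differences of -0.24 and -0.090. Probe A_52_P219473 (chr11:98785169-98785228) read 0.355, 0.360, 0.360 and 0.382, differences of -0.0024 and 0.083. The first probe was thus lower at 48 h by more than the spot limit and the second was not. Cdt1, the partner of Cdc6 in loading, differed by -0.21 at 72 h and -0.26 at 48 h. Its levels were 34.7, 32.6, 27.2 and 28.2, both Rif1 siRNA arrays below both others. Gmnn, which encodes the Cdt1 inhibitor geminin, gave -0.27 at 72 h and -0.23 at 48 h with probe A_55_P2128646 and 0.061 and -0.13 with A_55_P2172560, whose position is annotated on the opposite strand.

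Cdc7, the kinase that Rif1 is known to oppose, had the 1 measured member probe past 1.5-fold, in comparisons with untreated cells. Probe A_52_P512519 read 0.0920 in untreated cells, 0.0536 after control siRNA, 0.0554 at 48 h and 0.0509 at 72 h of Rif1 siRNA, so the untreated array stood apart from the other 3. The difference of control siRNA minus untreated was -0.78 for this probe and -0.050 for the second Cdc7 probe, A_55_P1977484. Against the control siRNA array, the probes differed by -0.076 and 0.14 at 72 h and by 0.045 and -0.028 at 48 h. Both probes were dim. Dbf4, the activating subunit of the kinase, read 1.87, 2.04, 1.75 and 1.75, lower than the control by -0.22 at both times.

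Genes for assembly and firing of the active helicase were lower as a group, with a median of -0.18 at 72 h and -0.19 at 48 h over 7 probes, against -0.069 and -0.071 over all probes and -0.11 at each time over bright probes, as 6 of the 7 are. Gins1, Gins2, Gins3 and Gins4, the subunits of GINS, differed by -0.21, -0.18, -0.24 and -0.13 at 72 h and by -0.19, -0.26, -0.19 and -0.15 at 48 h. Mcm10, which acts in helicase activation, differed by -0.18 and -0.19. Smaller values were found for Cdc45, the remaining part of the active helicase, at -0.015 and -0.090, and for Topbp1, a scaffold of origin firing, at -0.076 and -0.036. For 6 of these 7 probes both Rif1 siRNA arrays lay below both other arrays (43.3% of all probes, 57.8% of bright ones), Cdc45 being the exception. Under quantile normalization the group medians were -0.098 and -0.11, against -0.064 and -0.069 over all probes.

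With the arrays scaled to the 75th percentile and control siRNA as the reference, the clamp and its loader gave the lowest group median at 72 h. The 3 Cdc7 and Dbf4 probes had a lower one under quantile normalization (-0.16 against -0.11) and after normexp (-0.214 against -0.205). Against untreated cells, helicase assembly and firing (-0.198) and the MCM probes (-0.192) were among the groups below the clamp and loader (-0.125). Pcna, the sliding clamp, differed by -0.10 at 72 h and -0.093 at 48 h. Among the subunits of replication factor C, which loads the clamp, Rfc4 was the lowest, and its 4 levels are given because it was the lowest of all members at 72 h, a choice made after its values were seen. Probe A_55_P2159801 read 3.51, 3.49, 2.78 and 2.62 in untreated, control siRNA, 48 h and 72 h cells, and probe A_55_P2159807 read 18.2, 18.9, 15.8 and 15.7. Set against the control, this makes -0.41 and -0.27 at 72 h, with -0.32 and -0.26 at 48 h, so that both probes gave the same direction and exceeded the spot limit at each time. Rfc2 and Rfc5 differed by -0.20 each at 72 h, and Rfc1 and Rfc3 by -0.043 and -0.058. All 7 probes of clamp and loader were lower on both Rif1 siRNA arrays than on both others, against 43.3% of all probes and 57.8% of bright ones. The group median was -0.20 at each time, -0.12 at 72 h against untreated cells, and -0.11 at each time under quantile normalization, against -0.064 and -0.069 over all probes.

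The polymerases were mixed. Pold1 and Pold2, the catalytic and a second subunit of polymerase delta, which makes the lagging strand, differed by -0.26 and -0.27 at 72 h and by -0.34 and -0.28 at 48 h. In levels, Pold1 read 11.8, 11.6, 9.16 and 9.67, and Pold2 read 2.94, 2.86, 2.36 and 2.37, so that both Rif1 siRNA arrays were below both others. Pole, the catalytic subunit of the leading-strand polymerase epsilon, stayed at the control level: its probe A_55_P2007273 differed by -0.031 and 0.040, and A_55_P2089035 by 0.076 and -0.087. The third Pole probe, A_55_P2455460, was the one member probe not well above background in untreated and control siRNA cells, and it was at least 1.08-fold higher at 72 h and at least 1.16-fold higher at 48 h than after control siRNA, taking the lowest signal well above background there as the bound. Pole2, the second epsilon subunit, differed by -0.056 and -0.18.

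Polymerase alpha and primase, which lay down the primers, had a median of -0.10 at 72 h and -0.035 at 48 h over 5 probes, of -0.065 at 72 h under quantile normalization and of -0.0042 at 72 h against untreated cells. Pola1 differed by -0.10 and 0.034, Pola2 by -0.16 and -0.37, and Prim1 by -0.055 and -0.16. Prim2 had probes of opposite sign at 72 h, -0.19 for A_51_P338998 and 0.29 for A_55_P1998827. The second of these read dimly, at 0.0468 in untreated cells, 0.0438 after control siRNA, 0.0474 at 48 h and 0.0534 at 72 h. It was the highest member value at 72 h, and no sign for Prim2 can be read from the pair.

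Replication protein A, which coats single-stranded DNA, was slightly lower than the control in 2 of its 3 subunits with the 75th-percentile scaling. Both Rpa1 probes agreed, at -0.14 and -0.13 at 72 h and -0.17 and -0.15 at 48 h, Rpa2 differed by -0.20 and -0.23, and Rpa3 by 0.037 and 0.016. Ribonucleotide reductase, which supplies deoxynucleotides, was lower in both subunits, with Rrm1 at -0.14 and -0.29 and Rrm2 at -0.16 and -0.26. Both reductase probes were past the spot limit at 48 h (29.1% of all probes) and within it at 72 h (27.9% were past it). Under quantile normalization the medians of replication protein A were -0.030 at 72 h and -0.076 at 48 h, and those of the reductase -0.062 and -0.21, against -0.064 and -0.069 over all probes, so at 72 h neither group then lay below the array. Of the enzymes that finish the lagging strand, Fen1, the flap nuclease, differed by 0.11 and 0.056 and Lig1, the ligase, by -0.13 and -0.11. The median of this last pair turned from -0.011 to 0.098 at 72 h and from -0.028 to 0.068 at 48 h under quantile normalization. Against untreated cells it was -0.13 at 72 h.

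**Figure D4:**
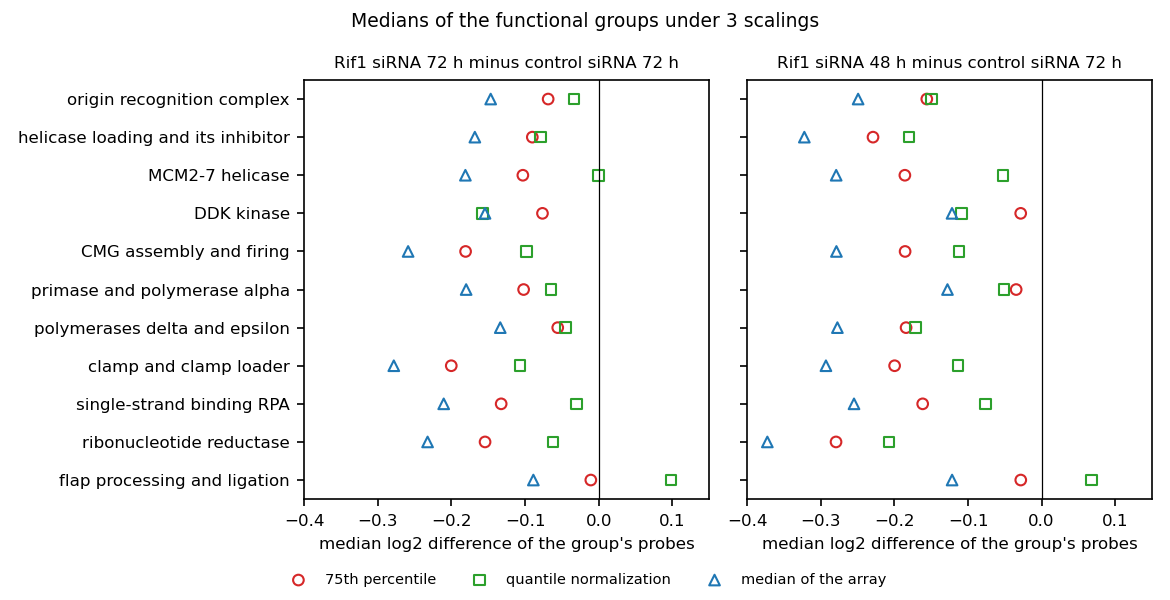
Median log2 difference of the probes of each functional group from the control siRNA array (horizontal axis) at 72 h (left) and 48 h (right) of Rif1 siRNA, with the arrays scaled to the 75th percentile (circles), quantile-normalized (squares) or scaled to the array median (triangles). The MCM median at 72 h moves from -0.10 to 0 and the clamp and loader median from -0.20 to -0.11 under quantile normalization.

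Between the Rif1 siRNA arrays, the replication genes were slightly nearer to the control at the later time. Of 55 member probes measured on all 4 arrays, 40 (72.7%) were higher at 72 h than at 48 h, against 48.7% of all such probes. The median of 72 h minus 48 h was 0.045 over the 56 member probes and -0.0051 over 27521 probes. The Rif1 probe itself was higher at 72 h than at 48 h by 0.95 on the log2 scale. The part of time in culture and of the recovering Rif1 signal in this difference cannot be told apart with 1 array per time.

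Other genes of replication and of the cell cycle are given for comparison. Among 39 further replication genes (checkpoint adaptors, repair helicases, histone chaperones and nucleotide enzymes), 64 probes were measured at 72 h. Of these, 2 exceeded the control by more than 1.5-fold (4.45% of all probes) and 1 fell below it by as much (2.54%). At 48 h these were 4 (5.55%) and 1 (3.43%) of 63. The median was -0.062 at 72 h and -0.14 at 48 h. Mcm9, which encodes a helicase of recombination repair related to MCM, was over 2-fold higher with both probes. Probe A_52_P82660 read 0.263 in untreated cells, 0.229 after control siRNA, 0.579 at 48 h and 0.520 at 72 h, and A_55_P2151646 read 0.0632, 0.0644, 0.171 and 0.157. Both Rif1 siRNA arrays were above both others, with differences from the control of 1.34 and 1.41 at 48 h and 1.18 and 1.28 at 72 h. Of the 3 Tk1 probes, A_55_P2056501, which was not well above background in untreated and Rif1 siRNA 48 h cells, read 0.0141, 0.0364, 0.00693 and 0.00693 in the same order and differed by -2.39 at 72 h, and A_55_P2056493 and A_55_P2056496 by -0.17 and -0.21.

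E2F and other G1/S regulators gave 0 of 39 measured probes over 1.5-fold in either direction at 72 h (4.45% of all probes higher, 2.54% lower). At 48 h, 1 was higher (5.55%) and 2 were lower (3.43%). The medians of these regulators were -0.065 at 72 h and -0.087 at 48 h. Genes of G2 and mitosis gave 0 of 35 over 1.5-fold at 72 h and 1 of 35 lower at 48 h, against the same shares of all probes. At 48 h all 35 G2/M probes were below the control (61.3% of all probes) and 26 were below it by more than the spot limit (29.1%), with a median of -0.25 against -0.071 over all probes. At 72 h 11 were below it by more than the limit (27.9%), with a median of -0.12, or -0.065 under quantile normalization.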

How the data were processed

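RNA of each condition was hybridised to 1 one-colour Agilent mouse array. Per the file headers, the authors scanned the arrays and extracted signals with Agilent Feature Extraction 11.5.1.1. The deposited intensities are background-subtracted and detrended within each array and not scaled between arrays. A deposited table of the same arrays holds ratios to the 75th percentile, in which the authors' scaling step is not stated. Here, outlier spots were left out, repeated spots averaged, and processed signals divided by the 75th percentile of the non-control spots of each array. Values were compared as log2 differences in Python 3.11.15 with pandas 2.3.3 and numpy 2.4.6, and normexp (offset 50) and quantile normalization were run with limma 3.58.1 in R 4.3.3. With 1 array per condition no test could be made. The calculations were tested on simulated data. Precision is limited by how few arrays there are.

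The member genes and the gene lists were chosen with earlier results of these data known. Named with a level on each array were Rif1, Mcm2 to Mcm7, Cdc6, Orc2 and members past 1.5-fold. Genes of the other lists past 2-fold are named, some without levels. Levels of Pou5f1, Sox2, Col1a1 and further members were added after their values were seen. The spot limit, the share of probes lower at all, the restriction to bright probes and the group medians under other scalings were added after the data were seen. The arrays share 1 slide, so slide could not be used as a block. Symbols on the array are those of its design.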

Additional observations from a re-analysis of the deposited data

How the results depend on the processing

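No paired analysis was possible because a single array was made for every condition. Of 186 recomputed values for 20 results, 160 stayed within the tolerance, 19 moved and 7 reversed; the cause was not tested. The tolerance was the same sign and a shift of at most 0.0651 on the log2 scale (the median SD of repeated spots) for medians, which is wider than several of them, and 1.5 times for counts. Within it, the member median at 72 h was -0.055 under quantile normalization, and the member median minus that of all probes at 72 h was -0.00032 after normexp. The absence of member probes over 1.5-fold or 2-fold against control siRNA at 72 h and 48 h held under every alternative run, except that with untreated cells as the control 1 probe (of Cdc7) was over 1.5-fold lower at 72 h. Scaling to the array median gave member medians of -0.19 at 72 h, -0.26 at 48 h and 0.032 for control siRNA minus untreated, spot-limit counts of 31 and 42 (43.4% and 47.4% of all probes), and 0 probes with both Rif1 siRNA arrays above the others. Quantile normalization gave a member median 0.0092 above all probes at 72 h, spot-limit counts of 8 at 72 h and 17 at 48 h (27.8% and 30.4% of all probes), 4 probes above the others, and for control siRNA minus untreated a median of 0.0032, 0.0062 above all probes. For that last comparison the members lay 0.0073 above all probes after normexp, 0.063 without a filter and 0.00049 with the filter of the methods. There, 1 probe was over 1.5-fold higher without a filter and with the filter of the methods, and 0 were over 1.5-fold lower with normexp, with 1 value per gene and among bright probes. Lower beyond the spot limit there were 2 probes with normexp and 0 among bright probes. Probes with both Rif1 siRNA arrays above the others numbered 0 with normexp, 1 with 1 value per gene and 0 among bright probes. Leaving out a replicate was not possible with 1 array per condition.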
